A study of Mus musculus with 4 samples.

Results

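The genes described are 9 that encode the parts of the pre-B cell receptor and the surface receptors of early B-lineage cells: Il7r, Kit, Flt3, Igll1, Vpreb1, Vpreb2, Cd79a, Cd79b and Cd93. They were chosen by name, not by any measured value, but with earlier results of these data known. They are 9 of 21774 protein-coding genes placed on the assembled mouse chromosomes. For each gene, all IgD peaks that touched the gene body or the 50 kb on either side of it were collected from both deposited peak lists. The libraries came from chromatin immunoprecipitation with sequencing (ChIP-seq) of pro-B cells, sorted as B220+ IgM- CD43+ cells from the bone marrow of wild-type mice. No other allele or agent is given for either group, and the labels give no age, strain or number of mice. An antibody against mouse IgD was used in 2 libraries and mouse IgG, the isotype control, in 2. A peak list was made from each pair of equally numbered IgD and IgG libraries, and the lists are called pair 1 and pair 2 here. Pair 1 held 11375 peaks and pair 2 held 40628. ChIP peaks do not measure expression, so the labelled cell type could not be checked against its markers.

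The pre-B cell receptor is the first form of the B cell receptor that a developing B cell makes. It joins an immunoglobulin heavy chain to a surrogate light chain, which is built from VpreB (Vpreb1 or Vpreb2) and lambda 5 (Igll1), and it signals through the chains Ig-alpha (Cd79a) and Ig-beta (Cd79b). Before and beside it, progenitors depend on cytokine receptors: the interleukin-7 receptor alpha chain (Il7r) and the receptor tyrosine kinases KIT and FLT3. Cd93 encodes a surface lectin-like receptor that is used to mark immature B-lineage cells.

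No pair 1 peak lay within 50 kb of any of the 9 genes, and pair 2 peaks lay within 50 kb of 7 of them. No gene had a peak in both pairs. By the same rule 15.9% of all protein-coding genes had a pair 1 peak, 81.5% had a pair 2 peak and 14.0% had both. The 7 of 9 in pair 2 are 77.8% (exact Clopper-Pearson 95% interval 39.99 to 97.2), which is close to that background. The 0 of 9 in pair 1 allows a share of up to 33.3% (3 counts of 9), a range that holds the pair 1 background. Intervals and limits cover counting error only. As each pair gave 1 list, there is no replicate within a list and no test was run. Agreement between the pairs is the only replicate check. With 0 pair 1 peaks in these windows, no pair 2 peak could have a counterpart there. The share of all pair 2 peaks that have one is not given here, so this is not read as a result about these genes.

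**Figure D1:**
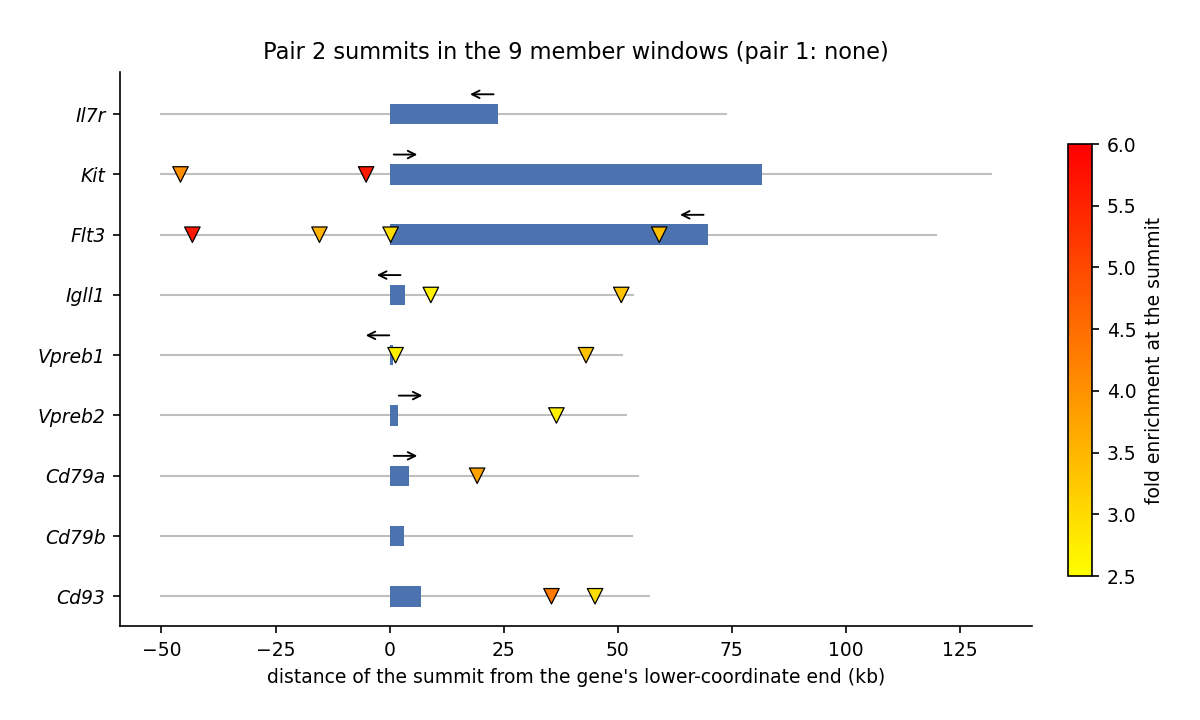
Positions of IgD summits in the windows of the 9 genes. Each row is a gene: the blue box is its body, the grey line its window of 50 kb on either side, the arrow its start and direction of transcription where the promoter table gives them, and each triangle a pair 2 summit coloured by fold enrichment; the x axis is the distance in kb from the lower-coordinate end of the gene. Igll1 and Vpreb1 are neighbours and show the same 2 peaks, Il7r and Cd79b have none, and no pair 1 summit falls in any row.

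The surrogate light chain genes held the only peak that covered the start site of any of the 7 members with a listed start. The Vpreb1 promoter is shown because this peak covers all of it, and the Vpreb2 promoter because part of it is a near copy with no peak. Both run 5′ to 3′ along the transcript, from 250 bases before to 50 bases after the annotated start, and are taken from RefSeq (GRCm38.p6). Vpreb1 is read from the minus strand (chr16:16869206-16869505) and Vpreb2 from the plus strand (chr16:17980315-17980614). The annotated Vpreb2 gene begins at 17979445, upstream of its listed start at 17980565. Its window therefore lies inside the gene body, unlike that of Vpreb1, which spans the start of the gene. Capitals mark identical bases in the stretch common to both windows, and small letters within that stretch are the bases at which they differ.
Vpreb1: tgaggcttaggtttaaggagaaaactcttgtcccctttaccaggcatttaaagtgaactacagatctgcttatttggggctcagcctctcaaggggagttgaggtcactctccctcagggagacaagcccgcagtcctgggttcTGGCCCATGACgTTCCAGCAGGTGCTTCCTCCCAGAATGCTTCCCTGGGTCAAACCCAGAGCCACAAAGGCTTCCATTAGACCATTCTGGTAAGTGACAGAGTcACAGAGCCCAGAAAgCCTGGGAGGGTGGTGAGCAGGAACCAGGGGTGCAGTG
Vpreb2: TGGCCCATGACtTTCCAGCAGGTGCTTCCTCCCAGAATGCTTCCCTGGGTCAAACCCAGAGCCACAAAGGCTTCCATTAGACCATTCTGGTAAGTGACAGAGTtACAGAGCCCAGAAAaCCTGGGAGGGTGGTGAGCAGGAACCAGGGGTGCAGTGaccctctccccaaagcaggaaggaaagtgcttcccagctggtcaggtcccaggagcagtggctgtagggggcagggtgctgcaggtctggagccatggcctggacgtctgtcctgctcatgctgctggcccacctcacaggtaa

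The windows have 156 bases in common, of which 153 (98.1%) are identical, and the longest run without a difference is 91 bases. These are the last 156 bases of the Vpreb1 window and the first 156 of the Vpreb2 window. The edges of the windows cut the stretch, so how far the likeness goes on to either side was not measured. A read that lies wholly within that run cannot be placed at 1 gene rather than the other, and how reads that map to several places were handled is not given in the sources used here.

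Vpreb1 (chromosome 16, 16868401 to 16869255, mm10) lay under a weak pair 2 peak from 16869025 to 16869793, which is 769 bp wide. Its summit, at 16869720, was 465 bp upstream of the start site, 215 bp beyond the promoter window and 359 bp from the compared stretch. The fold enrichment at the summit, which sets IgD fragments over a background and was taken as the authors' peak caller gave it, was 2.70. Its -log10 q was 1.80, where both lists end at 1.30 to 1.31, that is, at a q of 0.05. Behind the summit stood 9 IgD fragments (4.12 to 17.1, exact Poisson interval at 95%), where the background was 2.699. Such numbers were worked out from the fold and the p-value and hold only if the peak caller did not scale the IgD fragments. Of all pair 2 peaks, 84.8% had a higher fold. A peak touched the 300 bp promoter of 1 of the 7 members with a promoter sequence in pair 2 and of 0 in pair 1. Among all protein-coding genes with such a sequence these shares were 4.38% and 1.66%. Whether reads shared with Vpreb2 contributed to the Vpreb1 peak was not tested, and the sequence under its summit was not compared with the Vpreb2 locus.

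Igll1 (chromosome 16, 16860671 to 16863985), which encodes lambda 5, lies 4.42 kb from Vpreb1 and has no peak of its own. The Vpreb1 peak summit was 5.74 kb upstream of its start. A second pair 2 peak in the window of both genes, from 16911447 to 16912388, had a fold of 3.32 and a -log10 q of 3.35. Its summit lay 47.5 kb upstream of Igll1 and inside Ppm1f, which encodes a protein phosphatase. With 2 peaks each, the Igll1 and Vpreb1 windows held 19.4 and 19.8 peaks per Mb in pair 2. Over the windows of all protein-coding genes the median was 11.8 per Mb, and the median count was also 2. The higher density thus comes from shorter windows, not from more peaks. These 2 genes share all their peaks and count as 1 locus.

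Vpreb2 (chromosome 16, 17979445 to 17981274) lies 1.11 Mb from Vpreb1. Neither list had a peak on its promoter window, which lies inside the gene, or elsewhere on the gene body. The only pair 2 peak in its 50 kb window ran from 18015503 to 18016231. Its summit lay 35.5 kb downstream of the listed start site and 34.7 kb beyond the end of the gene. Its fold of 2.70, its -log10 q of 1.80 and its 9 fragments were the same values as at Vpreb1. These were the 2 lowest peaks of all 12 in the member windows.

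The nearest pair 1 peak to Vpreb1, from 16963441 to 16963970, lay 94.2 kb away, and to Igll1 the same peak lay 99.5 kb away. With a fold of 2.58 and a -log10 q of 1.41 it stood near the end of the pair 1 list. For Vpreb2 the nearest pair 1 peak lay 448 kb away.

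The windows of the receptor tyrosine kinase genes held the strongest peaks of the group. These strongest peaks lay outside the gene bodies. Kit (chromosome 5, 75574987 to 75656722), the receptor for stem cell factor, had a pair 2 peak from 75569681 to 75570285 whose summit was 5.14 kb upstream of the start site. Its fold was 5.68 with a -log10 q of 9.15, from 20 fragments (95% exact Poisson interval 12.2 to 30.9). Of all pair 2 peaks, 9.19% had a higher fold. A pair 2 peak with a fold of at least 5 lay in the windows of 33.2% of all protein-coding genes. A second peak, from 75528990 to 75530570, lay 45.8 kb upstream. At 1581 bp it was the widest of the 12, and its fold was 4.05 with a -log10 q of 4.64 from 14 fragments (7.65 to 23.5). No other coding gene lay nearer to either summit than Kit. No peak of either list touched the 81736 bp gene body, and the nearest pair 1 peak was 1119 kb away.

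Flt3 (chromosome 5, 147330741 to 147400489, minus strand), the receptor for FLT3 ligand, had 4 pair 2 peaks, more than any other member. Of these, 2 had their summit inside the gene, the only member summits to do so. The first, from 147389491 to 147390195, had its summit 10.6 kb downstream of the start site with a fold of 3.38 and a -log10 q of 3.25. The other, from 147330909 to 147331401, had its summit 235 bp inside the end of the gene, with a fold of 2.97 and a -log10 q of 2.30. The gene table lists no exons, so neither summit was assigned to an exon or intron.

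Beyond the end of Flt3 lay the other 2 peaks. One, from 147314826 to 147315491, had a fold of 3.51 and a -log10 q of 3.39, and its summit fell inside Urad, which encodes an enzyme of urate breakdown. The strongest, from 147286980 to 147287714, had a fold of 5.68 and a -log10 q of 9.15, the same values as the peak 5.14 kb upstream of Kit. It lay 43.2 kb from Flt3 but only 11.7 kb from Pdx1, a transcription factor gene of the pancreas. The Flt3 window held 23.6 peaks per Mb, more than the windows of 78.9% of all protein-coding genes. Pair 1 had no peak within 1515 kb of the gene.

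Il7r (chromosome 15, 9506159 to 9529941), which encodes the receptor chain that binds interleukin-7, had no peak in its window in either list. The nearest pair 2 peak, from 9443763 to 9444370, lay 61.8 kb beyond the end of the gene with a fold of 3.63 and a -log10 q of 4.0. Pair 1 had its nearest peak 317 kb away. Il7r and Cd79b, the members with none, have a pair 2 density of 0. The 81.5% of all protein-coding genes with a higher density are therefore the same genes that have any pair 2 peak.

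Of the genes for the signalling chains, 1 had a pair 2 peak in its window. Cd79a (chromosome 7, 24897497 to 24901858) had that peak, from 24916503 to 24917274, with its summit 14.8 kb beyond the end of the gene and inside another coding gene, Arhgef1. Its fold of 3.78 was the median of the whole pair 2 list, and its -log10 q was 4.0 from 13 fragments (95% exact Poisson interval 6.92 to 22.2). Cd79b (chromosome 11, 106311341 to 106314562) had none, and its nearest pair 2 peak lay 63.1 kb away with a fold of 3.38. In pair 1 the nearest peaks were 436 kb from Cd79a and 367 kb from Cd79b. With peak counts of 1 and 0, no difference between these genes can be read.

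Cd93 (chromosome 2, 148436651 to 148443535) had 2 pair 2 peaks on its higher-coordinate side and none on the gene. The nearer, from 148471929 to 148472709, had its summit 28.6 kb from the gene with a fold of 4.33, a -log10 q of 5.31 and 15 fragments (95% exact Poisson interval 8.40 to 24.7). The farther, from 148481581 to 148482256, lay 38.2 kb away with a fold of 2.97 and a -log10 q of 2.30. For both summits Cd93 was the nearest protein-coding gene. The table of start sites used here has no entry for Cd93, so these sides are given by coordinate alone. The nearest pair 1 peak lay 183 kb away, with a fold of 2.91.

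**Figure D2:**
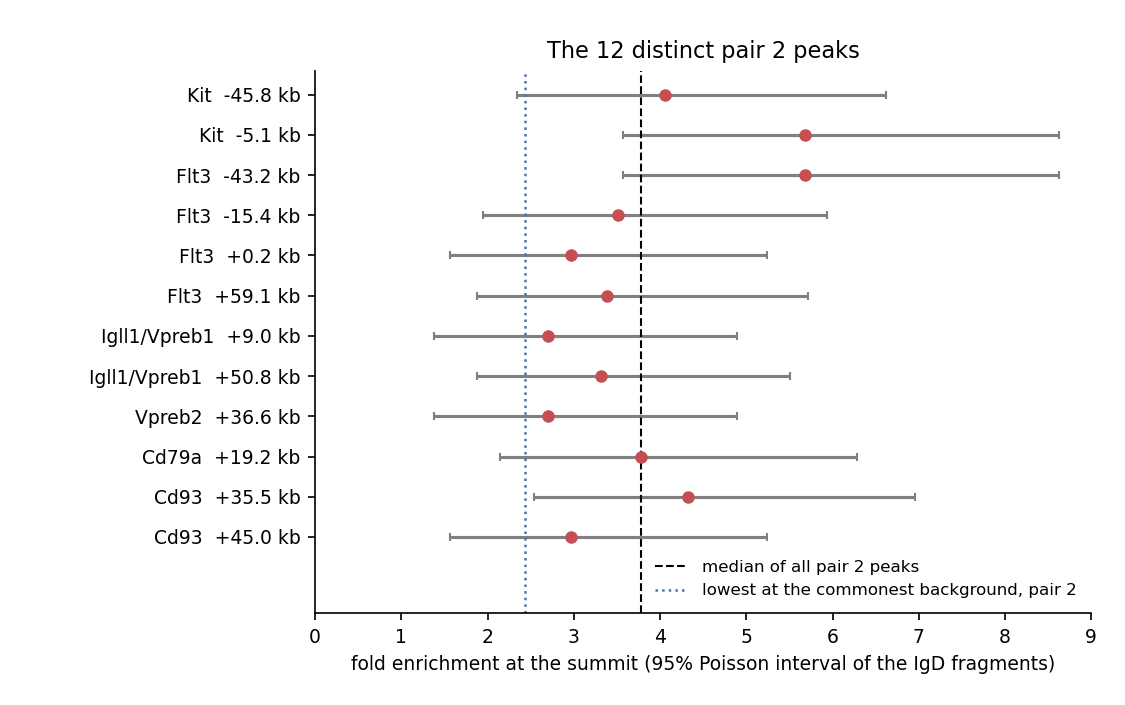
Fold enrichment at the summit of each of the 12 distinct pair 2 peaks in the member windows. Labels give the gene and the distance in kb from its lower-coordinate end (from that of Igll1 for the peaks shared with Vpreb1), bars are 95% Poisson intervals of the IgD fragments at a fixed background, the dashed line is the median of all pair 2 peaks and the dotted line the lowest fold called in pair 2 at its commonest background. Folds run from 2.70 in the windows of Vpreb1 and Vpreb2 to 5.68 in those of Kit and Flt3. Each of the 12 bars reaches across the median.

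Seen together, the 12 distinct peaks were narrow and of ordinary strength. They fell in 6 of the 8 separate loci that the 9 windows form. Widths ran from 493 to 1581 bp with a median of 732 bp, against 774 bp in all of pair 2. Folds ran from 2.70 to 5.68 with a median of 3.45, against 3.78 in all of pair 2, and 7 of the 12 lay under that value while 4 lay above it. A -log10 q of at least 5 was reached by 3 of the 12 (25.0%), against 38.8% of the whole list. These lay in the windows of Kit, Flt3 and Cd93. At 8 of the 12 summits the nearest protein-coding gene was a member, and at 4 it was another gene. Windows drawn around the members favour a member as the nearest gene, and the same share for other genes is not given here.

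Few fragments stood behind these peaks, between 9 and 20 at each summit with a median of 12.5. For 10 of the 12 the background equalled 2.699, the value found at 70.1% of all pair 2 peaks. On that scale 1 fragment more or less moves the fold by 0.270. A background shared so widely cannot be read as the IgG signal at each site. The Poisson intervals of the strongest peaks, 12.2 to 30.9 fragments, overlap those of the weakest, 4.12 to 17.1 fragments. At this depth the order of the 12 by fold is read as a description only.

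Pair 1 called summits of 9 fragments and more at its own commonest background of 2.756. All 12 pair 2 summits had at least 9. Fragments below the calling limit are not in a peak list, so how many pair 1 had at these positions cannot be read.

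Per length, the member windows held about as many pair 2 summits as counting error allows for those of other genes. The windows cover 1.00 Mb, and their 12 pair 2 summits (6.20 to 20.96 per Mb, exact Poisson interval at 95%) compare with 15.1 per Mb over the windows of all protein-coding genes and 14.9 over the assembled chromosomes. In pair 1, 0 summits have an exact Poisson interval at 95% that ends at 3.69 per Mb. That end is above the 3.24 over the windows of all protein-coding genes but below the 4.14 over the assembled chromosomes. The chromosomes that carry members ranged in pair 1 from 1.88 per Mb on chromosome 16 to 5.66 on chromosome 7. Peaks cluster along chromosomes, which intervals of counting error alone do not cover.

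**Figure D3:**
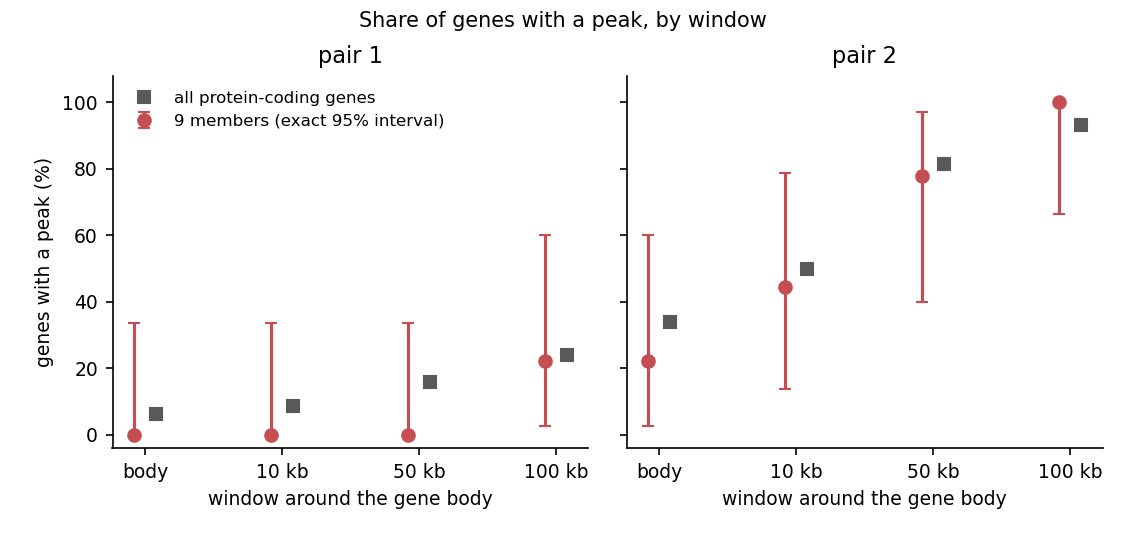
Share of genes with an IgD peak that touches the gene body or lies within 10, 50 or 100 kb of it (x axis), in pair 1 (left) and pair 2 (right), as a percentage of genes (y axis). Circles are the 9 members with exact 95% binomial intervals, which treat neighbouring genes as separate, and squares are all 21774 protein-coding genes; every square lies inside the interval of the members.

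The choice of window set the counts for members and other genes alike. A peak touched the gene body of 2 of the 9 in pair 2, Flt3 and Vpreb1, against 33.8% of all protein-coding genes. In pair 1 the body count was 0 against 6.28%, and in both pairs 0 against 4.43%. Within 10 kb the pair 2 count was 4, with Kit and Igll1 added, against 49.8%, while 0 had a peak in pair 1, against 8.64%, or in both pairs, against 6.30%. Within 100 kb all 9 had a pair 2 peak, against 93.3%. In that widest window pair 1 reached 2 genes, Igll1 and Vpreb1, through 1 shared peak, against 23.9%. The same 2 genes then had a peak in both pairs, against 22.9%.

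Other genes of the same pathways were counted by the 50 kb rule in 3 lists made by function. Among all protein-coding genes, 81.5% had a pair 2 peak and 15.9% a pair 1 peak by this rule. Of 12 genes of pre-B receptor signalling, 11 (91.7%) had a pair 2 peak and 2 (16.7%) had a pair 1 peak. The highest folds in these windows were 6.22 for Blk and 5.41 for Lyn, which encode Src-family kinases. For Plcg2, a phospholipase gene, the fold was 5.95, and for Syk, the kinase recruited by the Cd79 chains, it was 5.26. Of 13 genes for cytokine ligands, partner chains and downstream signalling, 10 (76.9%) had a pair 2 peak and 0 a pair 1 peak. Here Jak1, a kinase of cytokine receptors, had a fold of 7.03 in its window. Bcl2l1 and Mcl1, which encode survival proteins, had 5.95 and 5.24, and Cish, a feedback inhibitor gene, 5.33. For Blk, Mcl1 and Cish these summits lay outside the gene, and for Plcg2, Syk, Jak1 and Bcl2l1 inside. Lyn had the same fold at a summit inside and at another outside. A pair 2 fold of at least 5 was reached in the windows of 33.2% of all protein-coding genes.

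Surface molecules used to stage B-lineage cells had a pair 2 peak in 10 of 11 cases and a pair 1 peak in 2. Cd24a, the heat-stable antigen gene, had the highest fold in its window at 9.19. Then came Il2ra (7.77), which encodes CD25, Cd34 (6.49) and Ptprc (5.95), which encodes the B220 antigen used in the sort. The Cd24a and Il2ra summits lay outside the gene, those of Cd34 and Ptprc inside. In all 3 lists together, 31 of 36 genes (86.1%) had a pair 2 peak and 4 (11.1%) had a pair 1 peak, close to the backgrounds of 81.5% and 15.9%. The median of the highest fold per gene was 4.87 in these lists, 3.78 over the 7 members with a peak and 4.60 over all protein-coding genes with one. With no pair 2 peak were Btk, Flt3l, Crlf2, Stat5a and Ly6d, which are named here after their values were seen.

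Of the 36, 4 (11.1%) had a peak in both pairs: Blnk, Cd72, Cd24a and Enpep. This share, like the 0 of 9 members, compares with 14.0% of all protein-coding genes. Blnk encodes the adaptor that links SYK to its targets, Cd72 a B cell co-receptor and Enpep the BP-1 antigen of pre-B cells. The closest summits of the pairs were 8831 bp apart at Cd24a, 9741 bp at Cd72, 126524 bp at Blnk and 132945 bp at Enpep. Pair 1 folds there were 3.06, 3.46, 3.20 and 4.53. At Cd24a (chromosome 10, 43579169 to 43584265) the pair 1 peak, from 43578605 to 43579394, lay across the lower-coordinate end of the gene. A pair 2 peak touched the promoter window of 2 of the 29 pathway genes with a listed promoter, Il2ra and Vpreb3, and a pair 1 peak of 0, against 4.38% and 1.66% of all protein-coding genes. Vpreb3 is named after its values were seen.

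**Figure D4:**
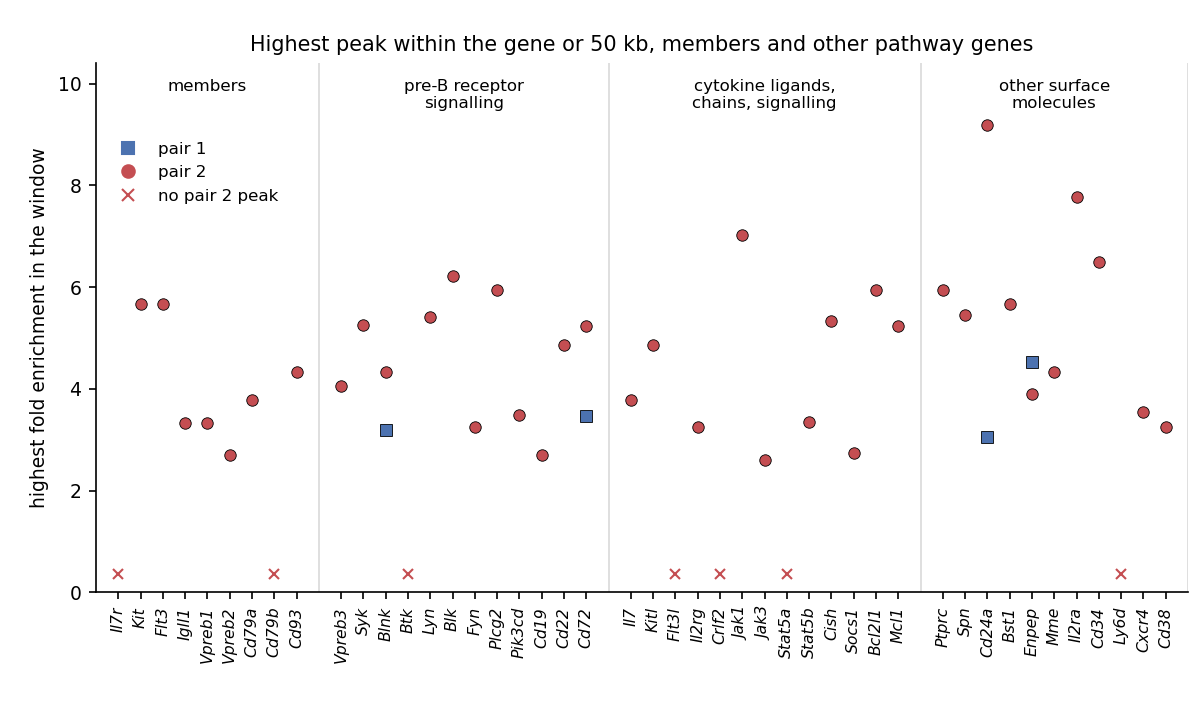
Highest fold enrichment of any peak within the gene or 50 kb of it (y axis) for the 9 members and 36 other pathway genes (x axis). Circles are pair 2, squares are pair 1 and crosses near the axis mark genes with no pair 2 peak; the members lie between 2.70 and 5.68 in pair 2 with no square, and the squares are at Blnk, Cd72, Cd24a and Enpep.

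Short sequence motifs were searched on both strands of the 7 member promoters that RefSeq gives. The E-box CANNTG, the core bound by E proteins such as E2A, was present in 7 of 7, and in 72.3% of 32851 promoter windows of the same length. A palindromic motif of the EBF1 type was in none of the 7 and in 0.904% of all. The E2F-type motifs TTTGGCGC and TTTCCCGC were in none of the 7, and in 0.514% and 1.07% of all. A match describes letters only, and no match says only that these letters are not in this window.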

How the data were processed

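Per the labels' protocols, chromatin of sorted pro-B cells was fixed with 1% formaldehyde for 10 minutes, sonicated and precipitated with a magnetic bead kit. The submitters' processing notes name HISAT2, MACS2, ChIPseeker and mm10, but no version or setting. Each IgD library was called over the IgG library of its number, per the labels. For each peak the authors deposited a fold ratio at the summit, a -log10 p, a -log10 q and an integer score, the last of which was not used.

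Genes came from RefSeq on GRCm38.p6, the assembly mm10 names, with 348 scaffold genes left out. A peak counted when at least 1 bp lay in a gene or its 50 kb flanks. Fragments at a summit were solved from fold, taken as (fragments + 1) / (background + 1), and the Poisson upper tail, within 0.01 of every deposited -log10 p. The Vpreb1 and Vpreb2 promoters were aligned, and the likeness given is for the 156 bases where their windows overlap, with 144 bases of each outside. Library read totals were not used here.

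Members and gene lists were chosen with earlier results of these data known. Named besides the 9 members were the nearest coding gene of each summit, pathway genes with a peak in both lists and up to 4 per list with the highest fold, plus others named as such. All 36 pathway genes matched the table. On simulated data, 200 of 200 genes with planted peaks and 300 of 300 fragment numbers were recovered. The simulations used the same window rule and fold formula, so they check the code only, not whether IgD fragments were scaled. Alternatives were other windows, stricter q and fold, width under 5000 bp, summits only, equal list lengths and stricter overlap. Python 3.11.15, numpy 2.4.6, pandas 2.3.3, scipy 1.17.1, biopython 1.88 and matplotlib 3.10.9 were used.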

Additional observations from a re-analysis of the deposited data

How the results depend on the processing

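The pair 2 counts fell under 4 settings. From 7 genes and 12 peaks they went to 4 genes and 4 peaks within 10 kb, to 3 and 3 at a -log10 q of at least 5, to 2 and 2 at a fold of at least 5, and to 2 and 2 with pair 2 cut to the 11375 peaks with the highest -log10 p. All protein-coding genes went from 81.5% to 49.8%, 52.8%, 33.2% and 43.7% under these settings. Within 100 kb pair 2 had 27 peaks, and pair 1 had 1 peak at 2 genes, which then had a peak in both pairs. Summits only and peaks narrower than 5000 bp left all counts as they were. The stricter overlap rules could not change the count of overlapping peaks, since pair 1 had 0 peaks in the 50 kb windows. Depth limits single peaks, since 9 to 20 fragments stand behind each. No paired analysis was possible because each pair gave 1 peak list and no test was run between groups.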
